A study of Mus musculus with 10 samples.

Results

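The circadian clock genes are the 10 genes Nr1d1, Nr1d2, Per1, Per2, Per3, Cry1, Cry2, Arntl, Clock and Dbp, out of 54408 genes counted in CD8 T cells sorted from mouse melanomas. They are a set of known genes, and transcript values were mapped to them by identifier. The set was chosen by name with earlier NFAT5 KO versus WT values of these libraries in view, so every NFAT5 KO versus WT value of these 10 genes is given as a description. All 10 were found and all 10 passed the filter on low counts, so no member is left out of what follows.

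The 5 NFAT5 KO libraries came from C57BL/6 P14 CD8 T cells with both Nfat5 alleles floxed and 1 copy of Cre driven by the Cd4 promoter, which acts in developing T cells. The 5 WT libraries came from P14 cells with the same floxed alleles and no Cre. P14 T cells all bear 1 transgenic receptor, for the gp33 peptide, which the melanoma line B16-gp33 was made to express. Both groups were activated for 48 hours in culture, given to mice with subcutaneous B16-gp33 tumours and recovered from the tumours after 7 days. The label prefix 678 covers 3 NFAT5 KO and 2 WT libraries and the prefix 679 covers 2 NFAT5 KO and 3 WT libraries; the labels do not say what it stands for, nor at what hour of the day the tumours were taken. Whether each library is a different mouse is not stated, and the spread on which p-values rest may therefore be partly technical. Summed over all transcripts, Nfat5 was at 12.2 (678_3), 12.6 (678_5), 11.6 (678_6), 26.7 (679_2) and 11.9 (679_6) CPM in NFAT5 KO, against 18 (678_2), 17.2 (678_4), 18.3 (679_3), 9.2 (679_4) and 14.2 (679_5) CPM in WT (log2 fold change -0.04, SE 0.27). The groups overlapped, and since the floxed exons are not named in the labels and the sum also counts exons outside them, this value does not check the genotype labels. Library totals ran from 22444310 to 32001285 estimated reads. Messenger RNA of the CD8 T cell markers Cd3e, Cd3d, Cd3g, Cd8a, Cd8b1 and Trac summed to 7160 to 7610 CPM (counts scaled by TMM-adjusted library size) in NFAT5 KO libraries and to 6760 to 7690 CPM in WT libraries, while Cd4 and Foxp3 together reached at most 2.42 CPM in NFAT5 KO and 1.8 CPM in WT libraries.

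The mammalian clock is a transcriptional feedback loop. CLOCK and ARNTL (also called BMAL1) form a dimer that binds E-box sequences and activates the Per, Cry, Nr1d and Dbp genes. PER and CRY proteins then repress that dimer. The nuclear receptors encoded by Nr1d1 and Nr1d2 (REV-ERB alpha and beta) bind ROR response elements and repress Arntl, and DBP activates genes through D-boxes. In T cells and other leukocytes the loop is known to run with a daily rhythm, and Per1 also responds directly to glucocorticoids and to cyclic AMP signals.

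Promoter sequences were searched for the letters that these factors are known to bind. RefSeq promoters on GRCm38.p6, 250 bases before to 50 after a start, were matched for 9 of the 10 genes (all but Per2) and searched on both strands. Per1, Arntl and Clock had several listed starts. A gene was counted if any of its windows held the letters, whereas the percentages are of single windows, so the measures are unlike. The E-box CACGTG was found in Per1 and Cry1, which is 2 of 9 genes, and in 7.15% of all 32851 promoter windows of that length. An ROR element core, TAGGTCA or TGGGTCA, was found at the second listed start of Arntl and in 6.45% of all windows. The D-box TTATGTAA or TTACGTAA was found in Per3, at a pair of places, and in 1.06% of all windows. The NFAT core TGGAAA was found in Nr1d1 at a pair of places and in 21.4% of all windows, and the CRE TGACGTCA in none of the 9 and in 1.79% of all. The windows that hold a clock motif are printed 5′ to 3′ on the gene's strand, with the motif in capitals.
Per1 E-box (chr11:69098766-69098805, plus strand): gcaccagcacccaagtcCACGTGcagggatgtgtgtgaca
Cry1 E-box (chr10:85185092-85185131, minus strand): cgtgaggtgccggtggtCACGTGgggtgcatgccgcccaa
Arntl RORE core (chr7:113207521-113207560, plus strand): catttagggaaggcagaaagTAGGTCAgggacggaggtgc
Per3 D-box (chr4:151044847-151044886, minus strand): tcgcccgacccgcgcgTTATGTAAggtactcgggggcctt
Per3 D-box (chr4:151044800-151044839, minus strand): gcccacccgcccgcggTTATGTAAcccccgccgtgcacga
None of the searched letters occurs in the Nr1d2 window, which is printed in full because Nr1d2 was the member with the clearest genotype difference.
Nr1d2 promoter (chr14:18239057-18239356, minus strand): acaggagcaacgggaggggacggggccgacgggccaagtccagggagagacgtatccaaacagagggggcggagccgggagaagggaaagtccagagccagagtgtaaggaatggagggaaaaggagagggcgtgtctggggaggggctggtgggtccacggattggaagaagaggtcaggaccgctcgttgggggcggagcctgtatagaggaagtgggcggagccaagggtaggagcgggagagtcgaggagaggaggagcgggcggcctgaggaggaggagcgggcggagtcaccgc
A match is a description of the letters and not evidence of binding, and a missing match says nothing about a factor that acts elsewhere in the gene.

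Nr1d2, which encodes the repressor REV-ERB beta, was higher in NFAT5 KO cells. In each library, Nr1d2 was at 15.3 (678_3), 30.4 (678_5), 19.1 (678_6), 21 (679_2) and 24.3 (679_6) CPM in NFAT5 KO, against 4.47 (678_2), 10.8 (678_4), 12.5 (679_3), 6.81 (679_4) and 4.77 (679_5) CPM in WT. Each NFAT5 KO library lay above each WT library, and both label prefixes held that order. The means were 22 ± 5.71 CPM in NFAT5 KO and 7.86 ± 3.6 CPM in WT cells (SD, n = 5 each), a 2.79-fold difference. The log2 fold change was 1.48 with a 95% interval of 0.82 to 2.15 (SE 0.31, adjusted p = 0.00936 over all genes, edgeR quasi-likelihood test), the 492nd smallest p-value of 13081. With 1 library left out it ran from 1.32 to 1.69 and stayed past the threshold in 10 of 10 fits. These fits reuse libraries that were in view when the set was chosen, so they describe the value and do not test it anew. The call was lost with the mean of macrophage markers as a covariate (1.18, adjusted p = 0.482), a fit that left 6 genes called in all, and within each label prefix alone, where the fold change kept its size (1.5 in 678 and 1.48 in 679, adjusted p = 0.335 and 0.14).

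Nr1d1, the paralog that encodes REV-ERB alpha, was low in both groups and overlapped between them. Nr1d1 was measured at 2.49 (678_3), 1.68 (678_5), 3.18 (678_6), 3.87 (679_2) and 1.29 (679_6) CPM in NFAT5 KO, against 1.67 (678_2), 3.03 (678_4), 0.892 (679_3), 1.65 (679_4) and 0.569 (679_5) CPM in WT. The highest WT library exceeded 3 of the 5 NFAT5 KO libraries. The log2 fold change was 0.68 (95% interval -0.41 to 1.76), so neither a difference as large as that of Nr1d2 nor none at all lies outside its interval. Only 13 to 113 reads per library stood behind these values. Its exons overlap those of Thra on the other strand over 263 of 3077 exon bases (8.55%), and the strand setting of the authors' quantification is not given in the sources used here, so reads of this stretch are uncertain.

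**Figure D1:**
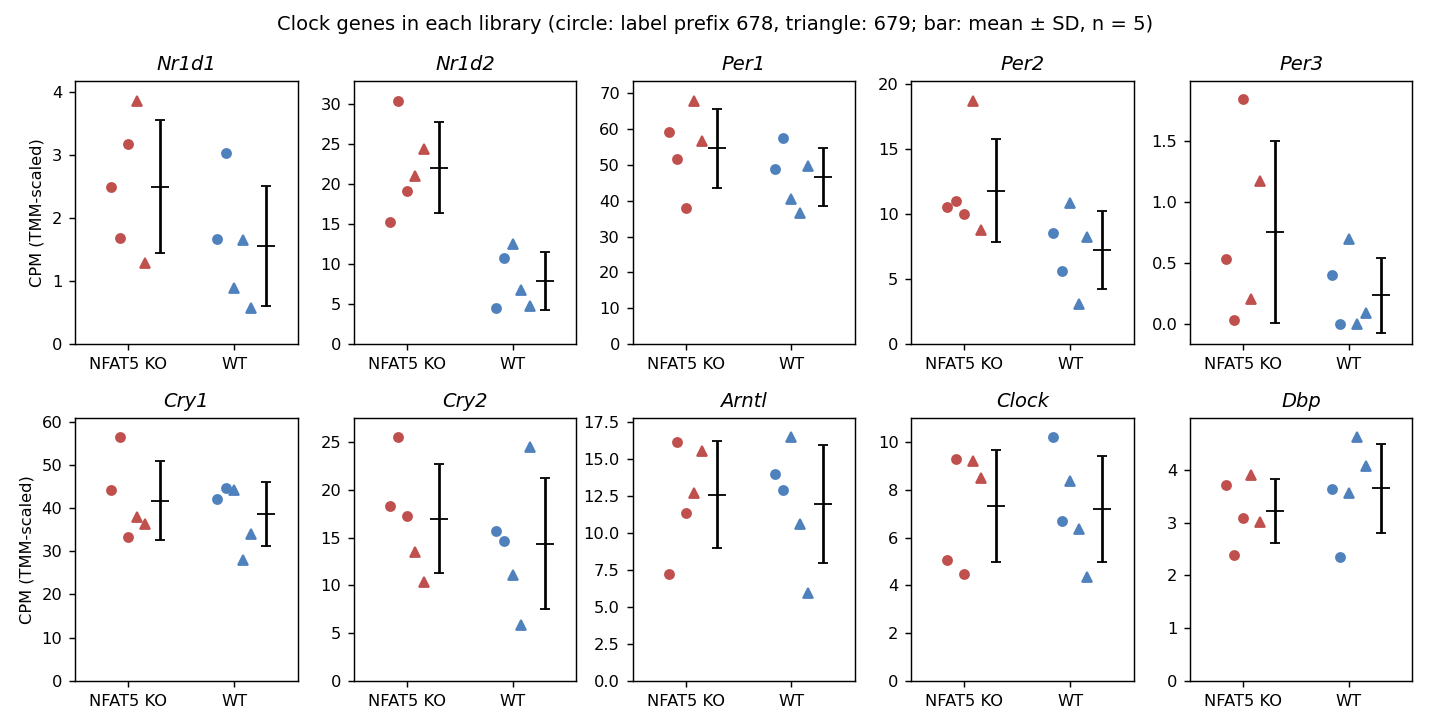
Level of each clock gene in every library, in CPM on an axis of its own, NFAT5 KO (red) left of WT (blue); circles are label prefix 678, triangles 679, and bars the mean ± SD of 5 libraries. Nr1d2 is the one gene whose NFAT5 KO libraries (15.3 to 30.4 CPM) all lie above the WT libraries (4.47 to 12.5 CPM).

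Per1 and Per2, which encode repressors of the CLOCK dimer, did not separate by genotype. Per1 stood at 37.9 to 67.9 CPM with a median of 56.6 in NFAT5 KO libraries, against 36.7 to 57.5 CPM with a median of 48.7 in WT libraries. The means were 54.6 ± 11 CPM and 46.6 ± 8.19 CPM in NFAT5 KO and WT cells (SD, n = 5 each), with a log2 fold change of 0.23 (95% interval -0.13 to 0.59), which leaves out a difference of 2-fold. The 2 label prefixes gave opposite orders for Per1. Its means were 49.5 CPM in NFAT5 KO against 53.1 CPM in WT libraries of prefix 678, and 62.2 CPM in NFAT5 KO against 42.2 CPM in WT libraries of prefix 679 (interaction log2 0.66, SE 0.31, unadjusted p = 0.0549, adjusted p = 1).

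Per2 stood at 10.5 (678_3), 11 (678_5), 10 (678_6), 18.7 (679_2) and 8.77 (679_6) CPM in NFAT5 KO, against 8.51 (678_2), 5.59 (678_4), 10.8 (679_3), 3.07 (679_4) and 8.19 (679_5) CPM in WT. Of the WT libraries, 4 lay below every NFAT5 KO library, and WT 679_3 lay among the NFAT5 KO libraries. The log2 fold change was 0.70 (SE 0.32, unadjusted p = 0.0503, adjusted p = 0.216), the second lowest p-value of the set. It rests partly on NFAT5 KO 679_2, without which it was 0.46 (the range with 1 library left out was 0.46 to 0.88). With an offset for transcript length it was 1.35 and did not pass either (adjusted p = 0.0883, edgeR). The transcript Per2-202, of 231 bases, had 7.1 reads in all, in 2 libraries. It averaged 1.37 TPM over the NFAT5 KO libraries and 0 TPM in WT, and its part in the offset value was not tested. Over transcripts of at least 1000 bases Per2 was at 2.32 ± 0.854 TPM in NFAT5 KO and 1.43 ± 0.621 TPM in WT cells. Per3 was near the limit of detection. It had 13 (678_3), 1 (678_5), 41 (678_6), 6 (679_2) and 36 (679_6) reads in NFAT5 KO, against 12 (678_2), 0 (678_4), 22 (679_3), 0 (679_4) and 2 (679_5) reads in WT. A count of 0 allows up to 3 reads, 0.0955 to 0.134 CPM by library, for counting error only, and the interval of its log2 fold change (-0.91 to 4.17) is too wide to place it.

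Cry1 and Cry2 encode the other arm of the repressor complex. Cry1 ran from 33.4 to 56.4 CPM with a median of 37.9 in NFAT5 KO libraries, against 27.9 to 44.7 CPM with a median of 42.2 in WT libraries, so the mean was higher and the median lower in NFAT5 KO cells. Its log2 fold change was 0.11 (95% interval -0.27 to 0.49), and without NFAT5 KO 678_5, the highest library, it was -0.04. Cry2 ran from 10.3 to 25.5 CPM with a median of 17.3 in NFAT5 KO libraries, against 5.87 to 24.5 CPM with a median of 14.6 in WT libraries. Its log2 fold change was 0.24 (95% interval -0.49 to 0.97). Among WT libraries of prefix 679 alone Cry2 stood at 11.1, 5.87 and 24.5 CPM in 679_3, 679_4 and 679_5.

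Arntl and Clock, the activators at the head of the loop, had means that differed by less than their spread. Arntl stood at 7.21 (678_3), 16.2 (678_5), 11.4 (678_6), 12.7 (679_2) and 15.6 (679_6) CPM in NFAT5 KO, against 14 (678_2), 12.9 (678_4), 16.5 (679_3), 10.6 (679_4) and 5.96 (679_5) CPM in WT. The highest and the lowest library were both WT. Clock stood at 5.05 (678_3), 9.3 (678_5), 4.48 (678_6), 9.21 (679_2) and 8.51 (679_6) CPM in NFAT5 KO, against 10.2 (678_2), 6.68 (678_4), 8.38 (679_3), 6.37 (679_4) and 4.34 (679_5) CPM in WT. The log2 fold changes were 0.07 (95% interval -0.55 to 0.69) for Arntl and 0.03 (95% interval -0.62 to 0.67) for Clock. For Clock the sign turned with library size alone as the scaling (-0.01), and for both genes it turned when some single libraries were left out. Dbp, the D-box activator and a direct output of the CLOCK dimer, ran from 2.38 to 3.9 CPM in NFAT5 KO libraries, against 2.35 to 4.62 CPM in WT libraries. Its log2 fold change of -0.18 (95% interval -0.82 to 0.46) was the only negative one of the 10. The Dbp exons overlap those of Sphk2 on the other strand over 539 of 2993 bases (18%), and Sphk2 had 904 to 1419 reads per library where Dbp had 65 to 137.

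Over the 10 genes, 1 was called in NFAT5 KO against WT cells (Nr1d2, higher), against 9.01% of all 13081 genes tested, 3.38% higher and 5.63% lower. The groups did not overlap for the same 1 of 10 genes, against 10.3% of all genes. Since the set was proposed with this comparison in view, nothing is read from these shares. The adjusted p-values of the 9 other genes ran from 0.216 to 0.973. The log2 fold changes had a median of 0.24 and 9 of 10 were above 0, whereas over all genes the median was 0.02 and 51.8% were above 0. Nothing is read from this either, for the same reason. The signs of Cry1, Arntl and Clock also turned when some single libraries were left out. In bulk RNA, fewer cells of a type and less RNA per cell cannot be told apart. The coefficient of variation over all 10 libraries ran from 19.9% for Per1 to 58.3% for Nr1d2, and was 121% for Per3. It pools the genotypes, so for Nr1d2 it includes the difference between them. With the genotype mean taken off, the SD of log2 CPM was 0.51 for Nr1d2. It was 1.52 for Per3, 0.72 for Nr1d1, 0.6 for Cry2 and 0.54 for Per2, and at most 0.49 for the remaining genes.

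**Figure D2:**
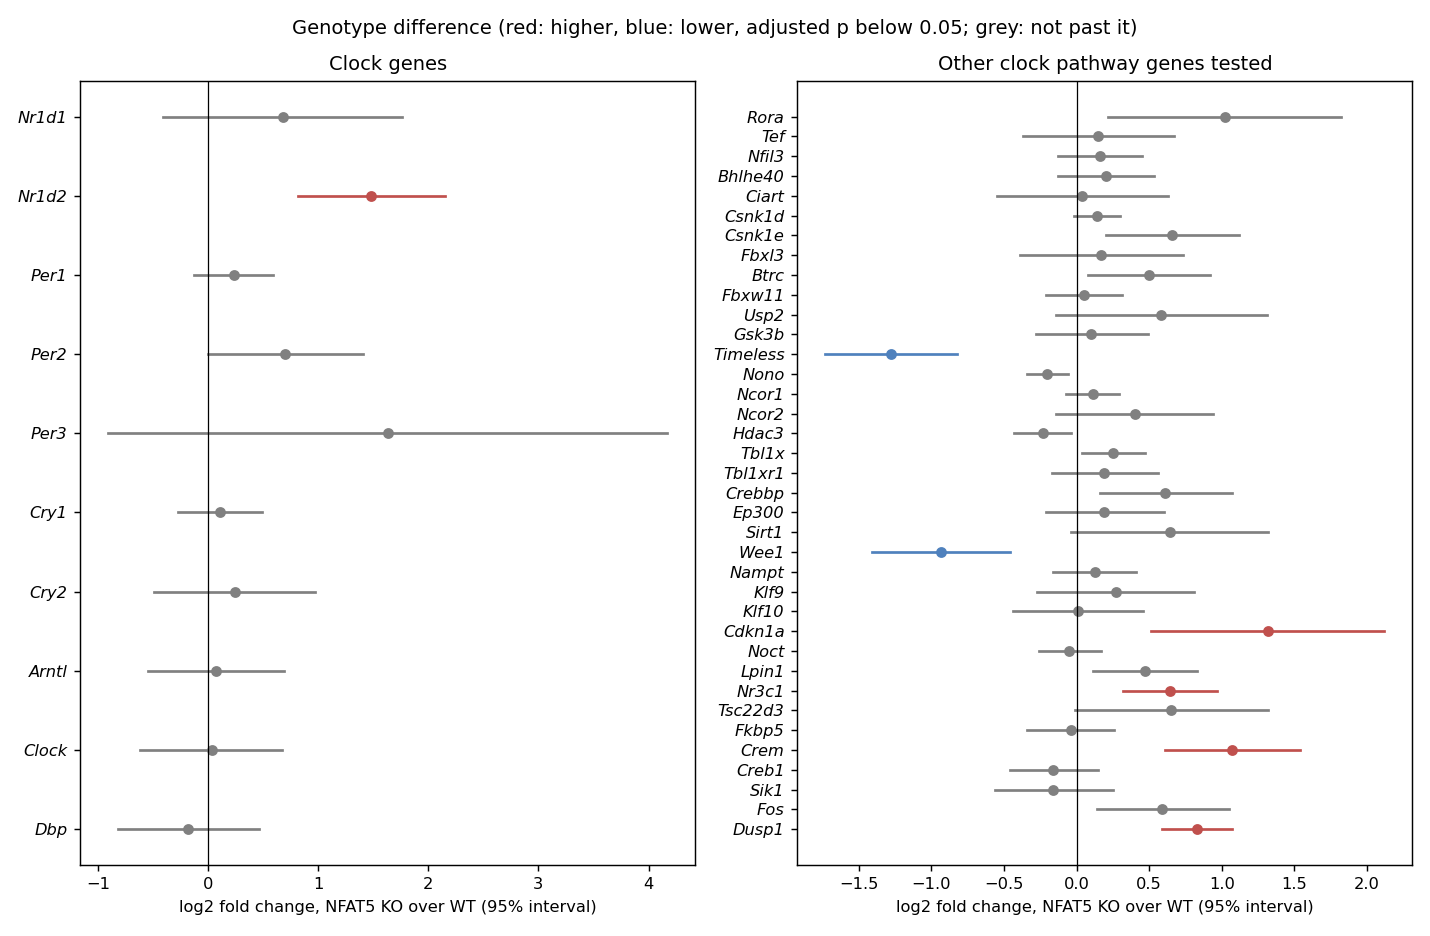
Log2 fold change of NFAT5 KO over WT with its 95% interval for the 10 clock genes (left) and for 37 other tested genes of the clock pathway (right). Red and blue mark genes higher and lower at an adjusted p below 0.05; among the clock genes only the interval of Nr1d2 (0.82 to 2.15) is red, and Per3 has the widest one.

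Levels of different genes can be compared only per length, for which the authors' TPM summed over a gene's transcripts was used. Over all 10 libraries Per1 (27.3 ± 7.21 TPM, SD) and Cry1 (19 ± 4.48 TPM) stood highest. Cry2 (5.43 ± 1.94 TPM), Nr1d2 (5.1 ± 3.6 TPM) and Arntl (5.09 ± 1.52 TPM) followed and did not differ beyond their spread, and Dbp (3.7 ± 0.865 TPM) and Per2 (2.56 ± 2.03 TPM) came next. Clock (1.46 ± 0.314 TPM), Nr1d1 (0.935 ± 0.507 TPM) and Per3 (0.123 ± 0.115 TPM) were lowest. Short transcripts weigh heavily on this scale. Per1-204, of 496 bases, held 5.25% of the Per1 reads but averaged 12.3 TPM in NFAT5 KO and 8.98 TPM in WT libraries, and counting only transcripts of at least 1000 bases, a choice made after this was seen, put Cry1 (18.1 TPM) before Per1 (16.7 TPM). Of neighbours in the order, Per1 exceeded Cry1 in 9 of 10 libraries, Cry2 exceeded Nr1d2 in 6, Nr1d2 exceeded Arntl in 4, and Cry1 exceeded Cry2 and Nr1d1 exceeded Per3 in 10. Nr1d2 was at 7.56 ± 3.58 TPM in NFAT5 KO cells, above Arntl at 5.18 ± 1.47 TPM, and at 2.64 ± 1.13 TPM in WT cells, below Arntl at 5.01 ± 1.74 TPM (SD, n = 5 each). Over transcripts of at least 1000 bases the first of these gaps closed, with Nr1d2 at 5.16 ± 2.05 TPM and Arntl at 5.13 ± 1.42 TPM in NFAT5 KO cells, while in WT cells they were at 2.07 ± 0.812 TPM and 4.92 ± 1.69 TPM.

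Transcript assignment differed between the genes. Nr1d2-201, a coding transcript of 4663 bases, held 85.9% of the Nr1d2 reads. It stood at 3.08 (678_3), 5.4 (678_5), 3.78 (678_6), 3.98 (679_2) and 4.53 (679_6) TPM in NFAT5 KO, against 0.665 (678_2), 2.07 (678_4), 2.36 (679_3), 1.01 (679_4) and 0.829 (679_5) TPM in WT. This transcript makes up most of the gene sum, so its separation of the groups is not a second result. Its share of the gene ran from 76.7% to 99.1% in NFAT5 KO and from 72.3% to 89.1% in WT libraries. For Per1, the transcript of 2972 bases annotated for nonsense-mediated decay held 42.3% of the reads, with 21.1% to 52.8% in NFAT5 KO and 34.6% to 55% in WT libraries. Arntl-201 held 40.4% to 61.2% of the Arntl reads in NFAT5 KO and 54% to 74.1% in WT libraries, and 4 of the WT libraries lay above every NFAT5 KO library. Clock was split among 4 transcripts with at least 10% each, and the coding transcript of 9744 bases took 60% of its reads in NFAT5 KO 678_5 and at most 20.4% in any other library. Since Salmon estimates how reads that fit several transcripts divide, the shares are less certain than sums per gene.

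**Figure D3:**
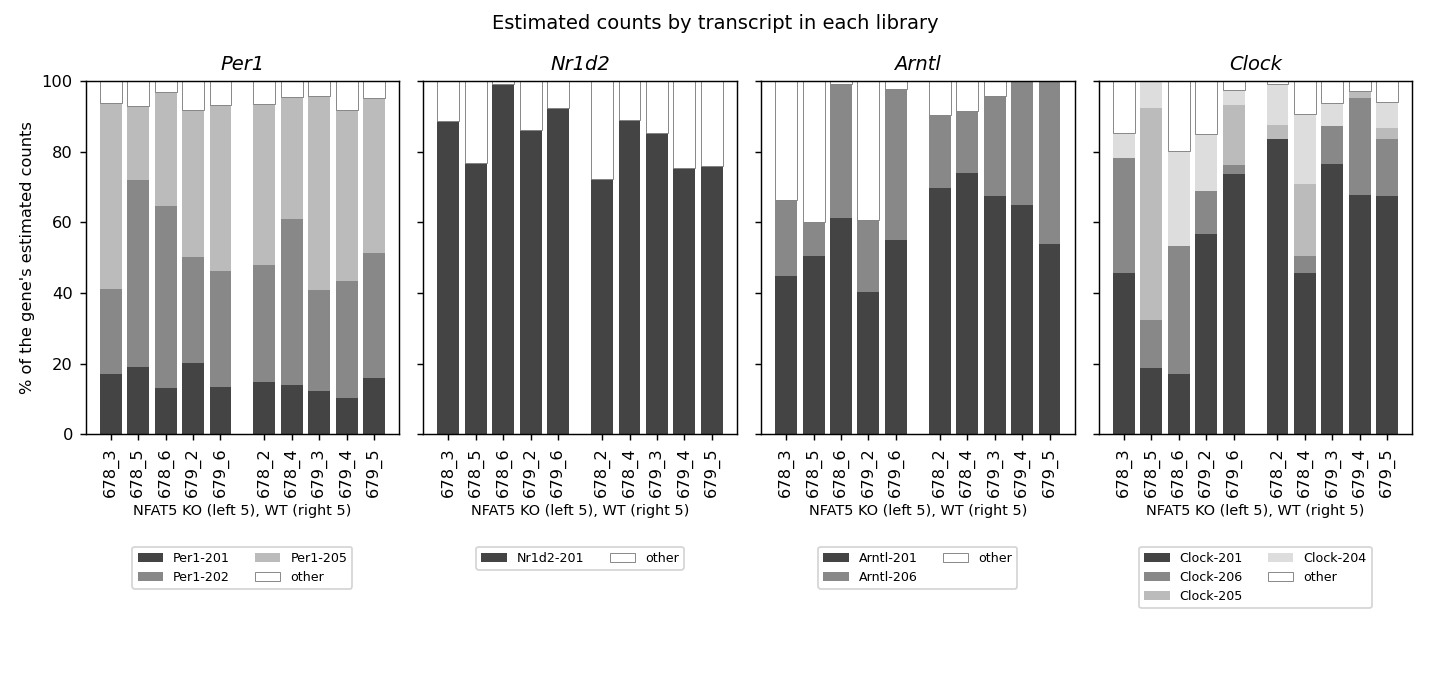
Share of each gene's estimated counts assigned to its main transcripts, in every library, for Per1, Nr1d2, Arntl and Clock; the left 5 bars of a panel are NFAT5 KO and the right 5 are WT, and white is the sum of other transcripts. Nr1d2-201 holds 72.3% to 99.1% in every library, and Clock-201 holds 17.1% to 83.6%.

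The label prefix was not used to choose the set, so it could be tested. None of the 10 genes differed between prefix 679 and prefix 678 in a fit that held genotype (adjusted p of 0.999 or above for each gene), and none of all 13081 genes did (0%; 425 genes, 3.25%, had an unadjusted p below 0.05, none of them in the set, edgeR quasi-likelihood test; the DESeq2 Wald test called 3 genes, none of the set). The smallest unadjusted p was that of Cry1 (36 ± 5.9 CPM in 679 and 44.2 ± 8.23 CPM in 678, log2 difference -0.28, SE 0.17, adjusted p = 0.999, edgeR). Dbp was at 3.83 ± 0.598 CPM in 679 and 3.03 ± 0.655 CPM in 678 (log2 difference 0.31, SE 0.30). For Nr1d2 the genotype difference was nearly equal in both prefixes, with means of 21.6 CPM in NFAT5 KO and 7.62 CPM in WT libraries of 678, and of 22.6 CPM in NFAT5 KO and 8.02 CPM in WT libraries of 679 (interaction log2 -0.01, SE 0.67). No gene passed for the interaction in the edgeR test (0%; 377 genes, 2.88%, had an unadjusted p below 0.05, none of them in the set).

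Within a genotype, the 10 genes did not vary as 1 block. Each library's log2 CPM was taken as a deviation from the mean of its genotype, and Pearson's r was computed over the 10 libraries as a description with no test. Arntl and Clock varied together (r = 0.82, with 0.74 within NFAT5 KO and 0.90 within WT libraries), and Clock ranked 38th of 10357 genes by likeness to Arntl. Nr1d2 also followed Arntl (r = 0.68), while Dbp ran against Cry1 (-0.66), Nr1d2 (-0.60) and Arntl (-0.49). The Per genes did not vary together: r was 0.38 for Per1 and Per2, -0.35 for Per1 and Per3, and 0.31 for Per2 and Per3. The last was 0.84 within WT and -0.49 within NFAT5 KO libraries, with Per3 near the limit of detection. Library size moved with Arntl and Clock. The log2 library total had r = 0.78 with Arntl and 0.86 with Clock, against 0.49 with Nr1d2 and -0.17 with Dbp, and its part in the likeness was not tested. By the same measure, among genes whose mean log2 CPM was 1 or more, the genes most like Arntl were Dbt (0.952), Zfp329 (0.89) and Glce (0.879), and those most like Clock were Slc11a2 (0.938), Slc39a3 (0.92) and Wac (0.906). Dbp was closest to Hist1h2bc (0.951), Tlcd2 (0.944) and Rpa2 (0.939), Per1 to Cyb5rl (0.942), Pard6b (0.934) and Pag1 (0.905), and Nr1d1 to Spcs2 (0.894), Pdxdc1 (0.892) and Rcor3 (0.883). These are the highest values of a search over all such genes. The 99th percentile of r was 0.74 for Arntl, 0.72 for Clock, 0.78 for Dbp, 0.75 for Per1 and 0.69 for Nr1d1. No member of the set was among these nearest genes, but Nr1d1 and Per3, with mean log2 CPM below 1, were not searched.

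**Figure D4:**
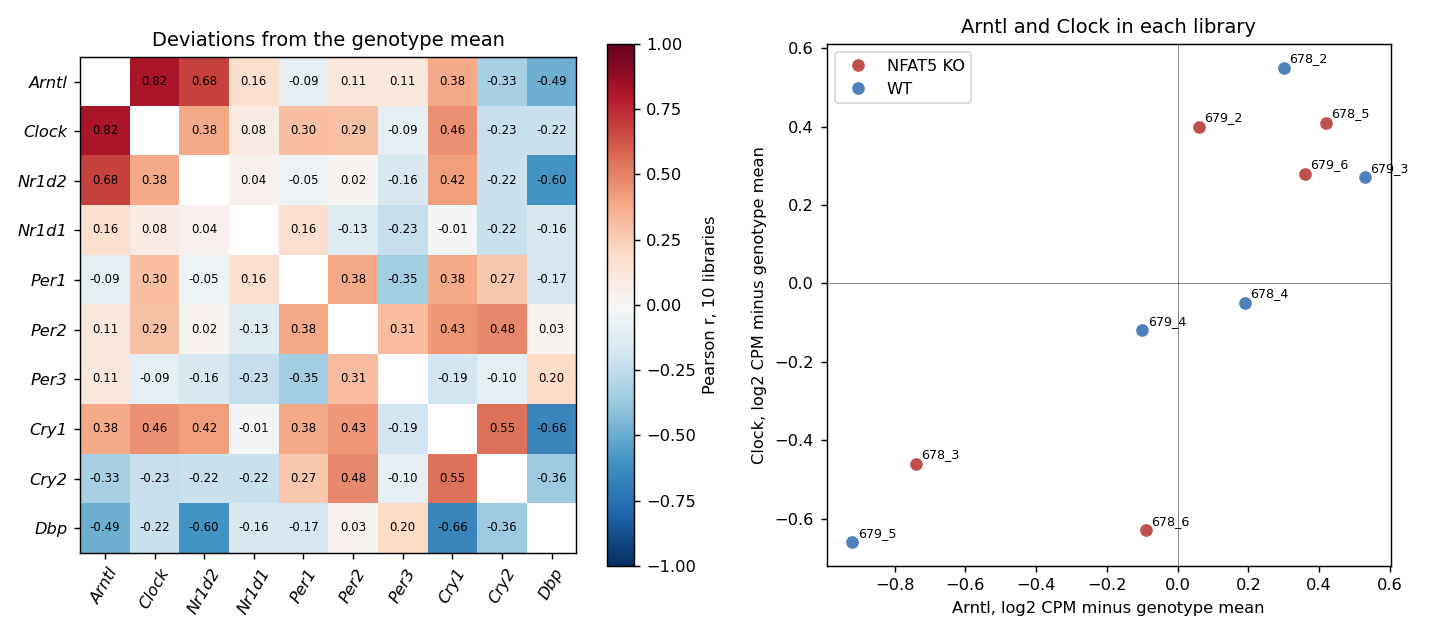
Left, Pearson's r between clock genes over 10 libraries of log2 CPM minus the genotype mean; right, those deviations for Arntl and Clock, each point a library, NFAT5 KO red and WT blue. Arntl and Clock share the darkest cell (0.82), and NFAT5 KO 678_3 and WT 679_5 lie lowest on the Arntl axis.

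Other genes of the clock pathway were described from lists made by role, with earlier results of these data known. Of 44 genes 37 were tested, 4 rose, 2 fell and 31 did not pass (16.2% called, against 9.01% of all genes). Over all genes 3.38% were higher and 5.63% lower. The median log2 fold change of the 37 genes was 0.19. Since the lists were made with earlier results known, nothing is read from these values or from the counts by list that follow. The count of called genes was 11 with the DESeq2 Wald test and 3 without WT 678_2. Among paralogs of the activators and genes of the ROR loop, only Rora was expressed enough to be tested. It encodes the activator that competes with REV-ERB proteins at ROR elements, and stood at 13.1 (678_3), 23.2 (678_5), 10.2 (678_6), 12.1 (679_2) and 18.6 (679_6) CPM in NFAT5 KO, against 6.27 (678_2), 14 (678_4), 2.8 (679_3), 6.41 (679_4) and 8.63 (679_5) CPM in WT. It had a log2 fold change of 1.02 (SE 0.37) and did not pass in the edgeR quasi-likelihood test (adjusted p = 0.112), with WT 678_4 inside the NFAT5 KO range. Npas2, a substitute for Clock, had 1 read in the 5 NFAT5 KO libraries together, against 29 (678_2), 3 (678_4), 57 (679_3), 8 (679_4) and 0 (679_5) reads in WT. It was too low for the filter, was called lower when no filter was used, and was singled out here after its values were seen.

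None of the 4 tested D-box factors and repressors passed. Bhlhe40, a repressor at E-boxes and an effector T cell gene, was at 1820 ± 496 CPM in NFAT5 KO and 1580 ± 69.5 CPM in WT cells (log2 fold change 0.20, SE 0.15). Its libraries of prefix 678 overlapped, at 1750, 1310 and 1370 CPM in NFAT5 KO (678_3, 678_5, 678_6) and 1540 and 1640 CPM in WT (678_2, 678_4). Those of prefix 679 did not, at 2400 and 2250 CPM in NFAT5 KO (679_2, 679_6) and 1620, 1640 and 1480 CPM in WT (679_3, 679_4, 679_5), and within prefix 679 alone Bhlhe40 was called. The genes of this list named next, and Csnk1e and Hdac3, were picked after their values were seen. Nfil3, which competes with DBP at D-boxes, had a log2 fold change of 0.16 (SE 0.13), Tef, a DBP paralog, one of 0.15 (SE 0.24), and Ciart, a repressor of the CLOCK dimer, one of 0.04 (SE 0.27). Of 9 genes of protein turnover and kinases, Timeless fell and 8 did not pass (11.1% called, against 9.01% of all genes). Timeless, best known in mammals for its role at replication forks, was at 26.8 ± 9.18 CPM in NFAT5 KO and 65 ± 7.83 CPM in WT cells (log2 fold change -1.28, SE 0.21, adjusted p = 0.00244, edgeR quasi-likelihood test), with all NFAT5 KO libraries below all WT libraries. Csnk1e, a kinase that marks PER proteins for destruction, had a log2 fold change of 0.66 (SE 0.21) and did not pass. None of 8 corepressors and cofactors passed. Crebbp, an acetyltransferase that acts with the CLOCK dimer, had the smallest p of the list and was at 79.1 ± 19.3 CPM in NFAT5 KO and 51.8 ± 15.1 CPM in WT cells (log2 fold change 0.61, SE 0.21, adjusted p = 0.0922, edgeR quasi-likelihood test); it was called within prefix 679 alone. Hdac3, the deacetylase recruited by REV-ERB proteins, was at 87.3 ± 8.54 CPM in NFAT5 KO and 103 ± 3.88 CPM in WT cells (log2 fold change -0.23, SE 0.09), and the groups did not overlap.

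Of 7 clock-controlled outputs 1 rose and 1 fell (28.6% called, against 9.01% of all genes). Wee1, a kinase that delays mitosis and is known as a clock target in mouse liver, fell to 12.7 ± 2.75 CPM in NFAT5 KO cells, against 24.2 ± 5.67 CPM in WT cells (log2 fold change -0.93, SE 0.22), and lost its call without WT 678_2. Cdkn1a, a cyclin-dependent kinase inhibitor that REV-ERB alpha represses in mouse liver, rose to 146 ± 56.5 CPM in NFAT5 KO cells, against 58.7 ± 25.3 CPM in WT cells (log2 fold change 1.32, SE 0.37), but passed in only 2 of 10 leave-one-out fits, reaching an adjusted p of 0.106 (edgeR quasi-likelihood test) without NFAT5 KO 678_5. It also lost its call with the label prefix as a block, with the transcript length offset and with no low-count filter. Beside Timeless, Wee1 and Cdkn1a, all 8 proliferation markers (Mki67, Top2a, Cdk1, Ccnb1, Ccnb2, Aurkb, Mcm2 and Rrm2) were lower in NFAT5 KO cells, at a summed level of 290 to 476 CPM in NFAT5 KO and 1090 to 1770 CPM in WT libraries, and their part in these values was not tested.

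Of 8 genes that act on Per1 or share its acute inducers, 3 rose and 5 did not pass (37.5% called, against 9.01% of all genes). This list too was made with earlier results known, so nothing is read from its share. Crem, a cyclic AMP response factor, stood at 99 (678_3), 212 (678_5), 105 (678_6), 109 (679_2) and 125 (679_6) CPM in NFAT5 KO, against 70.6 (678_2), 77.8 (678_4), 57 (679_3), 44.2 (679_4) and 58.9 (679_5) CPM in WT. It rose by 1.07 on the log2 scale (SE 0.21), and so did Dusp1, a MAP kinase phosphatase induced by glucocorticoids, by 0.83 (SE 0.11); both passed in each of the 10 leave-one-out fits. Nr3c1, the glucocorticoid receptor gene, rose by 0.64 (SE 0.15) and passed in 8, missing the threshold most without WT 678_2 (adjusted p = 0.0566, edgeR quasi-likelihood test). The 5 uncalled genes of this list are named with their values seen. The glucocorticoid targets Tsc22d3 and Fkbp5 did not pass (log2 fold changes 0.65, SE 0.31, and -0.04, SE 0.14), nor did Sik1 and Creb1, both of the cyclic AMP pathway (-0.16 each), or Fos (0.59, SE 0.21). Per1 itself, with its log2 fold change of 0.23, was not called beside them.

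RNA of marker genes of other cell types was low beside that of the CD8 T cell markers, but not equal between the genotypes. Whether the T cells themselves made part of it was not tested. The macrophage and dendritic cell sums, each of several genes, were above the Nr1d2 means of 22 CPM in NFAT5 KO and 7.86 CPM in WT cells. The 10 macrophage markers summed to 35.9 to 74.8 CPM in NFAT5 KO and to 69.5 to 138 CPM in WT libraries, with 1 of 8 tested markers lower and no marker at 0 in every library. The 4 dendritic cell markers (Flt3, Xcr1, Itgax and Siglech) ran the other way, at 118 to 191 CPM in NFAT5 KO and 49 to 145 CPM in WT libraries, with neither of the 2 tested markers called and Siglech at 0. B cell markers summed to 5.15 to 11 CPM in NFAT5 KO and 8.41 to 14.4 CPM in WT libraries. Endothelial markers summed to 35.3 to 50.4 CPM in NFAT5 KO and 39.7 to 68.3 CPM in WT libraries. With Cdh5 and Kdr at 0, the endothelial sum was that of Pecam1 alone. Melanoma markers summed to at most 3.79 CPM in NFAT5 KO and 4.27 CPM in WT libraries, with Sox10 at 0, and fibroblast markers to at most 0.852 CPM in NFAT5 KO and 1.36 CPM in WT libraries, with Col1a2 at 0. Within genotype, deviations of Nr1d2 had r = -0.26 with the macrophage mean and -0.50 with the proliferation mean over 10 libraries, and Dbp had 0.53 and 0.35. For the other members, r with the macrophage mean was 0.51 for Per3, -0.44 for Nr1d1, -0.36 for Cry2, -0.35 for Cry1 and -0.34 for Arntl. It was -0.23 for Clock, -0.06 for Per2 and 0.02 for Per1. With the dendritic cell mean, r was -0.55 for Clock, -0.49 for Dbp, 0.43 for Cry2, 0.42 for Nr1d1 and -0.01 for Nr1d2. Once the mean of the 8 tested macrophage markers entered the fit, Nr1d2 had a log2 fold change of 1.18 and did not pass (adjusted p = 0.482, edgeR). The r values with the macrophage mean were taken over all 10 markers. The part of the other cell types in the clock gene values was not tested.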

How the data were processed

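Expected counts and TPM values per transcript were deposited by the authors, 1 table per library with 140919 transcripts, per the file headers; Salmon 0.14.1 with builds GRCm38.p6 and mm10 is named in the submitters' processing notes. Annotation release, trimming and strand setting: not given in the sources used here. Transcripts were matched to GENCODE M21 by identifier (99.38%; those unmatched held 0.191% to 0.228% of a library's counts), and their estimated counts were added up within each gene and rounded. Genes were filtered with filterByExpr (13081 left), scaled by TMM and fitted (NFAT5 KO minus WT, 10 libraries) by the edgeR 4.0.16 quasi-likelihood test (robust, R 4.3.3), adjusted by Benjamini-Hochberg over all genes at 0.05. SE is the absolute log2 fold change over the square root of F, and 95% intervals use its t distribution. CPM are TMM-scaled; a prior count of 2 entered log2 CPM. Deposited TPM values served for levels per length. The biological coefficient of variation was 35.7%, and every library pair differed by more than sampling noise (at least 27.9 chi-square per gene). Floors cover counting error only. The named genes were the 10 clock genes, called genes of the pathway lists or the smallest p of a list with none, and the 3 genes most like 5 of the clock genes; others are said to be chosen after their values were seen. The members and lists were chosen with earlier results of these data known. The fit was run on simulated independent counts with known changes, drawn with its own dispersions. That run does not check for batches, cell mixtures or shared mice. Alternatives were other scalings (DESeq2 1.42.0 size factors, library size), filters, a transcript length offset, the label prefix as a block or alone, a macrophage covariate, the DESeq2 Wald test, limma-voom (limma 3.58.1) and leaving out each library.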

Additional observations from a re-analysis of the deposited data

How the results depend on the processing

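The call of Nr1d2 and its sign held under the other scalings, filters, length offset, prefix block, DESeq2 Wald test, limma-voom and each left-out library. All of these fits reuse libraries that were in view when the set was chosen, so this is a description of the value and not a new test. No member was called (0 of 10) in prefix 678 alone, in prefix 679 alone or with the macrophage covariate, which moves with genotype; the first 2 use fewer libraries, and the cause was not tested for the covariate. The count over all genes was 1179, and 0, 325 and 6 in those 3 fits, 1893 with the DESeq2 Wald test and 696 to 1276 with 1 library left out. For other clock pathway genes it was 6, and 0 in prefix 678 alone, 5 in prefix 679 alone (with Bhlhe40 and Crebbp, without Cdkn1a, Nr3c1 and Wee1), 5 with the prefix as a block (without Cdkn1a), 0 with the covariate, 11 with the DESeq2 Wald test and 3 to 8 with 1 library left out. Without the low-count filter 1003 genes of 22914 were called.

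Among uncalled members some signs turned. In prefix 678 alone Per1, Arntl, Clock and Dbp had log2 fold changes of -0.10, -0.22, -0.43 and 0.03, and in prefix 679 alone Cry2 had -0.22. With the covariate Nr1d1, Cry1, Cry2, Arntl, Clock and Dbp had -0.14, -0.13, -0.30, -0.10, -0.06 and 0.17. With limma-voom Cry1 and Clock had -0.03 each, and with library size alone Clock had -0.01. With 1 library left out Cry1 ran from -0.04 to 0.16, Arntl from -0.12 to 0.19 and Clock from -0.13 to 0.17. Of 207 values of single members under these alternatives, 180 kept their sign and side of the threshold, 24 changed sign and 3 lost the call. No paired analysis was possible because the numbers in the titles do not repeat across genotypes within a prefix. Depth limits Per3 and Nr1d1 most.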

Other observations

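Within-group extremes were examined for each clock gene and genotype (20 groups of 5 libraries), and no library stood apart by Dixon's criterion at a critical value of 0.71.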
